A study of Homo sapiens with 24 samples.

Results

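Absorptive enterocytes are the nutrient-absorbing cells that line the intestine, and 10 genes that mark them were followed here: CDX1, CDX2, VIL1, DPP4, ANPEP, CDH17, FABP1, ALPI, SI and KRT20. They were taken by gene symbol from a count table of 60623 genes, and all 10 were found, each in 1 row. The cells were HT-29, an epithelial line grown from a human colon cancer, as wild-type (WT) cells and as cells with a knockout (KO) of GPRC5A, a membrane receptor. WT and KO cells were each kept for 8 h with 0.1% DMSO, with 50 µM 7FTA (7-fluorotryptamine), with 10 ng/mL of the cytokine TNFα, or with TNFα plus 7FTA, which gives 8 groups of 3 libraries. A DMSO content is stated for the DMSO groups alone, and the labels do not say whether the KO cells are 1 clone. An effect of the knockout and a difference between clones cannot be told apart, and the same holds for 7FTA or TNFα and a difference in vehicle. The labels do not say that the 3 libraries of a group came from separate cultures, so the p-values rest on a spread among libraries that may be technical.

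Enterocytes form as epithelial cells leave the proliferating part of the crypt. The homeobox factors CDX1 and CDX2 set intestinal identity and bind T-rich DNA near genes of the mature cell. That cell then builds a brush border, a dense layer of microvilli with a core of bundled actin, and loads its membrane with enzymes that finish the digestion of sugars and peptides. HT-29 cells in ordinary culture are known to be largely undifferentiated, and to take on enterocyte or mucus-cell features under particular conditions.

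The promoters of SI and KRT20 are shown first, because SI is a textbook target of CDX2 and KRT20 had the highest level of the members and rose in all 4 comparisons with TNFα. RefSeq start sites on GRCh38.p14 were at hand for 7 of the 10 members. The 250 bases before the start are written in the direction of transcription, and capitals mark the CDX motif TTTAT on either strand. The SI window is chr3:165078497-165078746 and the KRT20 window chr17:40885243-40885492, both on the minus strand.
SI: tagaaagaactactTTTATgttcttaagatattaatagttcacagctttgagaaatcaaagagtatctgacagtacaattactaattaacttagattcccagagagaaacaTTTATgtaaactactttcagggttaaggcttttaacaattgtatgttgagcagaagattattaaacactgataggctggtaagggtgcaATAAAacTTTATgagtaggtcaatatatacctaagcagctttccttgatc
KRT20: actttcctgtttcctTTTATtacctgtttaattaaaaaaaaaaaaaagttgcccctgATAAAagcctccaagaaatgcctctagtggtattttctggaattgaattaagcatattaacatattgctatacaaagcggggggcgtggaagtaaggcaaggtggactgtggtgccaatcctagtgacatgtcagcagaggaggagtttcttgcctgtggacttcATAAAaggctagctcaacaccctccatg
The SI window held 4 matches and the KRT20 window 3. FABP1 had 3 and CDX2 had 2, while the windows of DPP4, ALPI and ANPEP had 0. The windows of these 5 genes lie wholly or partly within the gene as GENCODE 29 annotates it, so they are upstream of the RefSeq start only. A match was present in 32.7% of 35116 promoters of the same length, so the motif is common, and TATA-like sequences near a start site can contain it. A match to the NF-kB motif, the site of the main transcription factor of TNFα signalling, was found in FABP1 (1) and at 1 of the 2 listed ANPEP starts (2), against 9.96% of all promoters, and in neither window printed above. These matches describe letters in a window and say nothing about binding.

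The panel was uneven in level. CPM, used for levels, divides the counts of a gene by the library size after TMM scaling. Per kilobase of exon, the mean over 24 libraries was 303 CPM for KRT20, an intermediate filament of mature surface cells (chromosome 17, 40875941 to 40885227, GRCh38). That is above 99.3% of the tested genes. VIL1, which encodes the actin-bundling protein villin (chromosome 2, 218419092 to 218453295), had 21.3 CPM per kilobase. DPP4, a membrane peptidase that removes dipeptides (chromosome 2, 161992241 to 162074542), had 8.00. These were the only members above the lowest 1 in 5 of tested genes on this scale. CDX2 (chromosome 13, 27962137 to 27971139) had 0.427 CPM per kilobase and CDH17, the intestinal liver-intestine cadherin (chromosome 8, 94127171 to 94217303), had 0.423. FABP1, a carrier of fatty acids in the cytoplasm (chromosome 2, 88122982 to 88128116), had 0.246, and CDX1 (chromosome 5, 150166795 to 150184558) had 0.218. The ranges over libraries of these last 4 genes overlapped. The order of CDX2 and CDH17 differed between genotypes: with DMSO the per-kilobase means were 0.651 and 0.262 in WT cells, and 0.275 and 0.575 in KO cells.

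The 3 membrane hydrolases that define the mature brush border were close to undetected. ANPEP, aminopeptidase N (chromosome 15, 89784889 to 89815401), had 66 counts over all 24 libraries. SI, sucrase-isomaltase (chromosome 3, 164978898 to 165078495), had 40, with 9 libraries at 0. ALPI, intestinal alkaline phosphatase (chromosome 2, 232456123 to 232460032), had 6 counts, with 18 libraries at 0. These 3 genes fell below the count filter, so 7 of the 10 members were tested. CDX1 passed that filter only through libraries of the 2 KO groups that received TNFα. Its level there had to be high for it to be tested, and counts over the tested members are a description that supports nothing about the panel.

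**Figure D1:**
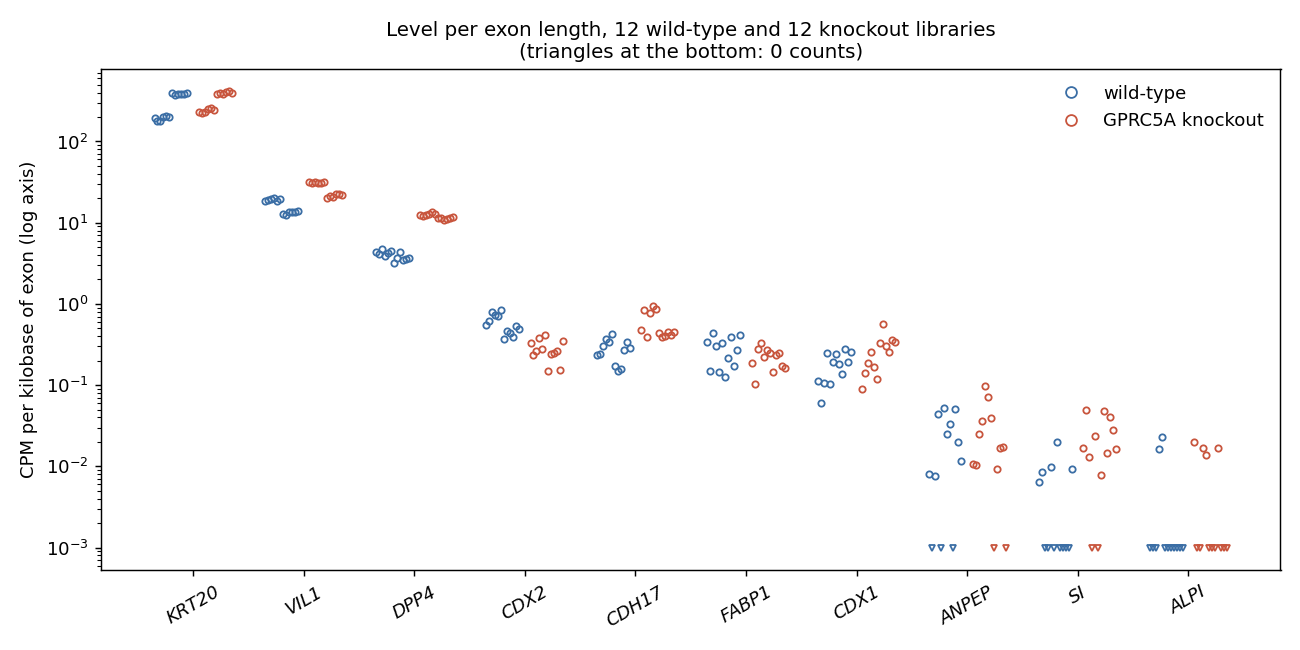
Level of the 10 members in CPM per kilobase of exon on a log axis, 1 point per library, with wild-type in blue and GPRC5A knockout in red; triangles at the bottom are libraries with 0 counts. KRT20, VIL1 and DPP4 lie far above the other members, and ANPEP, SI and ALPI have libraries at 0.

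Library totals ran from 16782857 to 27247407 counts. GPRC5A was 2.97-fold to 3.16-fold lower in KO cells in the 4 treatments (207 ± 5.84 against 69.8 ± 2.26 CPM with DMSO, SD, n = 3), and the labels do not say which part of the gene was altered. Epithelial markers were high in all libraries (EPCAM 613 to 698 CPM, KRT8 7510 to 10700 CPM). Of 7 markers of immune, stromal and vessel cells, PTPRC, CD3E, COL3A1 and VWF did not exceed 0.268 CPM, while CD14 reached 8.49, PECAM1 1.53 and COL1A1 1.24 CPM. CD14 was called lower in KO than WT cells with DMSO, by 1.57-fold. With TNFα it was 2.26-fold lower in the WT and 1.70-fold lower in the knockout. The summed level of the 7 was 8.75 to 10.3 CPM in WT and 6.69 to 7.06 CPM in KO cells with DMSO, and its part in the members' values was not tested. The summed level of 9 goblet and secretory markers was 242 to 251 CPM in WT and 837 to 884 CPM in KO cells with DMSO. In bulk RNA, fewer cells of a type and less RNA per cell cannot be told apart.

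The first comparison was KO against WT within each treatment. With DMSO, DPP4, CDH17, VIL1 and KRT20 were higher in KO cells, by 2.80, 2.15, 1.64 and 1.24-fold, while CDX2 was 2.38-fold lower. CDX1 and FABP1 did not pass the test, and the other 3 members were not tested. Of all tested genes, 48.1% were called in this comparison, 24% higher and 24.1% lower, at an adjusted p under 0.05 by edgeR's quasi-likelihood test. The 5 of 7 tested members are therefore read against a background in which about every other gene was called. The members' median log2 difference was 0.55 and that of all tested genes 0.01. The members' median is the value of CDX1, which was not called and passed the count filter only through KO groups with TNFα. This median therefore supports nothing about the panel. With 7FTA the same 4 members were higher and CDX2 was lower (49.5% of genes called). With TNFα 4 were higher and CDX2 was lower (50.6%), but CDX1 was among the 4 and KRT20 was not. The count with TNFα is a description, because CDX1 passed the filter only through KO groups with TNFα. With TNFα plus 7FTA 2 were higher, VIL1 and DPP4, and 1 was lower, CDX2 (51.9%).

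Of the CDX pair, CDX2 was lower in the knockout. WT libraries with DMSO had 2.27, 2.53 and 3.25 CPM, and KO libraries 0.955, 1.10 and 1.35 CPM. No KO library reached the lowest WT library of the same treatment in any of the 4 treatments. The log2 difference was -1.25 ± 0.23 with DMSO (SE, n = 3 per group; edgeR adjusted p = 1.4e-05). It was -1.08 ± 0.21 with 7FTA, -1.0 ± 0.28 with TNFα and -0.92 ± 0.26 with both. CDX2 lies on chromosome 13, whose 248 tested genes had a median difference of -0.45 with DMSO, against 0.01 for genes elsewhere. Of these genes 161 were lower and 14 higher, and the part of this chromosome-wide difference in the fall of CDX2 was not tested.

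CDX1, the paralog of CDX2, had 2 to 5 counts per library in WT cells with DMSO and 3 to 8 in KO cells. The CPM values overlapped (0.105, 0.187 and 0.199 in WT; 0.156, 0.251 and 0.325 in KO). Its difference of 0.55 ± 0.56 (log2, SE, n = 3) had a 95% interval of -0.58 to 1.68. With TNFα it was called higher in KO cells (1.04 ± 0.44, adjusted p = 0.0428 by edgeR). DESeq2 did not call it (adjusted p = 0.0874), nor did edgeR without the count filter (0.126), with the 2 groups fitted alone (0.0568), or without WT replicate 2 (0.0944), WT replicate 3 (0.138) or KO replicate 2 (0.215).

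VIL1, of the structural members, was higher in the knockout. It had 128, 132 and 135 CPM in the WT libraries with DMSO and 214, 216 and 218 CPM in the KO libraries. All 12 KO libraries exceeded every WT library. The difference was 0.72 ± 0.03 with DMSO (log2, SE, n = 3; edgeR adjusted p = 6.38e-23) and 0.67 to 0.71 in the other treatments. USP37, a neighbour that overlaps the end of VIL1, had 43.5 CPM in WT and 37.9 CPM in KO cells with DMSO. The strand setting of the counting is not given in the sources used here, so reads of overlapping genes could not be assigned with certainty.

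CDH17 joins neighbouring enterocytes. With DMSO it had 0.916, 0.949 and 1.2 CPM in WT libraries and 1.54, 1.87 and 3.32 CPM in KO libraries. The groups did not overlap, although the KO libraries were spread more than the WT libraries. The difference was 1.10 ± 0.24 (log2, SE, n = 3; edgeR adjusted p = 0.000122), 1.17 ± 0.21 with 7FTA and 1.36 ± 0.30 with TNFα. With TNFα plus 7FTA it was 0.53 ± 0.25 and not called (adjusted p = 0.0723). CDH17 was higher although the 472 tested genes of chromosome 8 had a median difference of -0.24 with DMSO.

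KRT20 was called higher in KO cells with DMSO and with 7FTA, and not in the 2 treatments with TNFα. It had 330, 333 and 358 CPM in WT libraries with DMSO and 411, 424 and 427 CPM in KO libraries. The difference was 0.31 ± 0.03 with DMSO (log2, SE, n = 3; edgeR adjusted p = 4.49e-11) and 0.31 ± 0.03 with 7FTA. With TNFα it was -0.01 ± 0.03, with overlapping libraries (688, 716 and 728 against 699, 703 and 720 CPM). With both agents it was 0.07 ± 0.03 (adjusted p = 0.06), and the KO libraries lay above the WT libraries (728 to 765 against 709 to 719 CPM). Without KO replicate 3 it was called (0.09, adjusted p = 0.0256).

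DPP4 had the largest difference of the tested members with DMSO. Its levels with DMSO were 20.5, 22.0 and 23.8 CPM in WT libraries and 60.9, 62.6 and 63.2 CPM in KO libraries. The lowest KO library of any treatment, at 54.7 CPM, stood above the highest WT library, at 23.8 CPM. The difference was 1.49 ± 0.06 with DMSO (log2, SE, n = 3; edgeR adjusted p = 4.46e-25), 1.62 ± 0.06 with 7FTA, 1.59 ± 0.07 with TNFα and 1.68 ± 0.07 with both. An antisense transcript, AC008063.1, overlaps DPP4 and had at most 11 counts in a library.

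The other hydrolases gave little to compare. SI had 34 counts over the 12 KO libraries and 6 over the 12 WT libraries, a depth-scaled ratio of 5.03 (95% interval 2.09 to 14.7, counting error only). In single libraries SI had 0 to 2 counts in WT and 0 to 6 in KO cells, so the groups overlapped in parts. An exact two-sided permutation of libraries within the 4 treatments gave p = 0.003 for the difference of 0.132 against 0.0277 CPM. It was 1 of 9 such permutation tests on ANPEP, SI and ALPI, chosen after the values were seen, and its Benjamini-Hochberg adjusted p over the 9 was 0.027. In the edgeR fit without the count filter, SI was called in none of the 4 treatments (adjusted p = 0.0822 to 0.629). ANPEP had 41 counts in KO and 25 in WT cells, a ratio of 1.46 (0.865 to 2.50), and ALPI had 4 and 2.

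FABP1 varied widely among libraries. WT libraries with DMSO had 0.369, 0.836 and 1.08 CPM and KO libraries 0.251, 0.467 and 0.691 CPM, which overlap. The difference of -0.71 ± 0.40 (log2, SE, n = 3) was not called by edgeR (adjusted p = 0.146), with a 95% interval of -1.52 to 0.10. Without WT replicate 2, the library with the lowest WT value, it was -0.99 with an adjusted p of 0.0432. With 7FTA the difference was 0.01 ± 0.39.

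**Figure D2:**
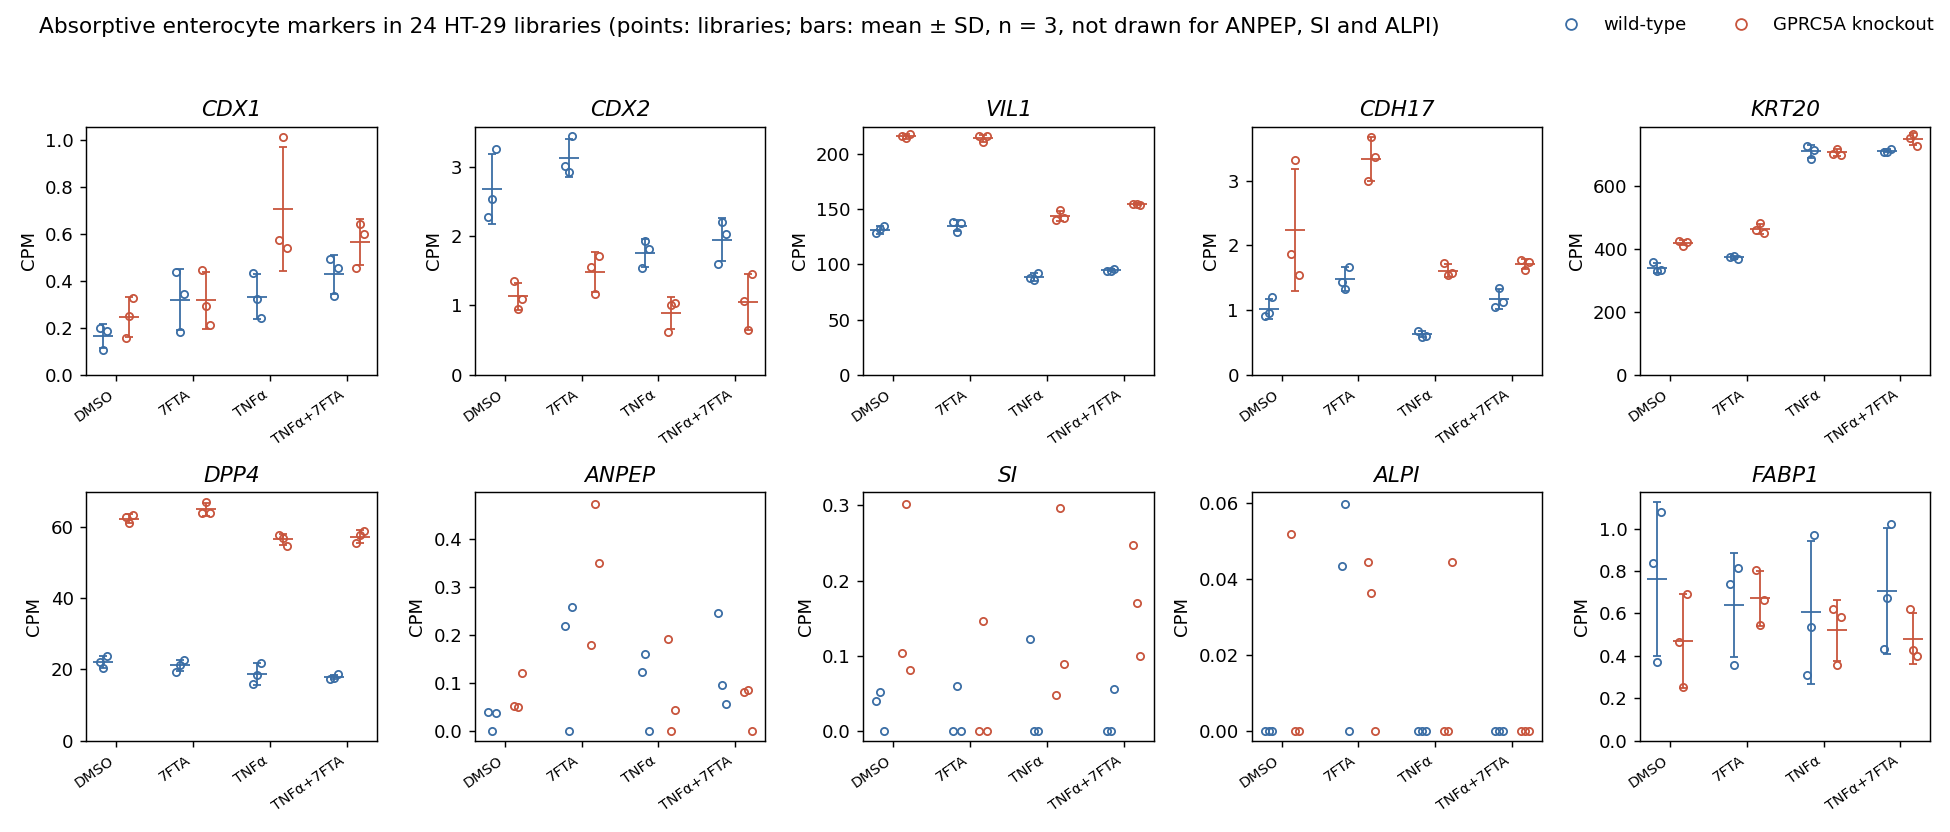
CPM of each member in the 24 libraries by treatment, wild-type in blue and GPRC5A knockout in red; points are libraries and bars the mean ± SD (n = 3), left out for ANPEP, SI and ALPI. DPP4 and VIL1 separate by genotype in every treatment, CDX2 separates the other way, and KRT20 separates by TNFα.

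Lists of other enterocyte genes, read against the same 48.1%, moved in both directions in KO cells with DMSO. Of 17 tested genes of brush border structure, 8 were higher, 4 lower and 5 not called (median 0.10). CDHR5, a protocadherin that links the tips of microvilli, rose 1.93-fold and PLS1, an actin bundler, 1.24-fold. EZR, which ties actin to the membrane, was 1.53-fold lower and EPS8, which caps actin filaments, 1.27-fold lower. Among the other brush border hydrolases and related phosphatases listed, 3 genes were tested and these 3 were lower. The peptidase DPEP1 was lower by 2.01-fold (12.3 ± 0.697 to 6.18 ± 0.764 CPM, SD, n = 3) and the peptidase ENPEP by 1.96-fold. ENPEP was low, at 1.42 CPM in WT and 0.699 CPM in KO cells with DMSO. It was called lower with 7FTA and with TNFα, and not with both (edgeR adjusted p = 0.545). ALPG, a paralog of ALPI, was lower by 5.88-fold at under 0.5 CPM. Its mean was 0.479 CPM in WT cells with DMSO and 0.0516 to 0.225 CPM in the 4 KO groups. The cutoff of the count filter was 0.477 CPM, so ALPG was tested because of WT libraries. Its call, and the count of 3 lower hydrolases, are therefore descriptions. ALPG was not called with 7FTA (edgeR adjusted p = 0.139) or TNFα (0.0913), and was called lower with both (0.00869). Paralogs of ALPI share sequence, so counts of ALPI and ALPG are uncertain.

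Products of colonocytes were higher for 6 genes and lower for 3 of 10 tested (median 1.06), against 24% and 24.1% of all tested genes. CEACAM6 and CEACAM5, surface adhesion proteins, were 6.79-fold and 6.26-fold higher, and the lectin LGALS4 rose 1.57-fold. CEACAM1 of the same family was 2.80-fold lower. Of 8 tested absorptive transporters, 3 were higher and 2 lower (median 0.21). The glucose carrier SLC5A1 was 1.70-fold and the iron carrier SLC11A2 1.30-fold higher, while the sodium-proton exchanger SLC9A2 was 3.30-fold and the iron reductase CYBRD1 4.17-fold lower. Of 4 tested genes of lipid handling, 2 were higher: the sterol transporter NPC1L1 (2.48-fold) and the bile acid carrier FABP6 (1.65-fold). NPC1L1 had means of 0.718 to 1 CPM in the KO groups and 0.092 to 0.349 CPM in the WT groups. The cutoff of the count filter was 0.477 CPM, so its passing leaned on KO libraries. Its call and this count are descriptions.

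Transcription regulators of enterocytes other than the CDX pair went mostly the other way from CDX2. Of 13 tested, 10 were higher in KO cells with DMSO, 1 was lower and 2 were not called (median 0.21). Of all tested genes, 24% were higher and 24.1% lower. Most differences were small: HNF4A 1.11-fold, HNF4G 1.14-fold, ELF3 1.16-fold, CBFA2T2 1.16-fold and GATA6 1.2-fold. BCL6 was 1.51-fold higher. KLF4, a factor of terminal differentiation, was 2.46-fold higher (11.4 ± 0.473 to 28.1 ± 1.05 CPM, SD, n = 3; edgeR adjusted p = 8.04e-21), and CBFA2T3 2.77-fold at under 1 CPM. KLF5, a factor of proliferating crypt cells, was 1.19-fold lower. HES1, a Notch target that favours the absorptive fate, differed by 0.00 ± 0.06 (log2, SE), and PRDM1 by 0.25 ± 0.36.

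Markers of neighbouring fates differed at the same time, in a comparison that called 24% of all tested genes higher and 24.1% lower. All 7 tested goblet and secretory markers were higher in KO cells with DMSO, led by REG4 (8.60-fold), AGR2 (3.40-fold), ATOH1 (2.97-fold) and TFF3 (2.62-fold). Of 5 tested stem cell markers 4 were lower, among them LGR5 (3.85-fold) and ASCL2 (2.76-fold). NEUROG3, the factor of early hormone-producing cells, was 2.52-fold higher, and CHGA, CHGB and SCT had at most 5 counts each in all libraries. The part of these fates in the differences of the enterocyte markers was not tested.

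The second comparison was TNFα against its absence. In both genotypes KRT20 rose and VIL1 fell. In WT cells with DMSO as control, KRT20 was 2.09-fold higher and CDX2, VIL1 and DPP4 were 1.52, 1.48 and 1.19-fold lower. Of 7 tested members, 1 was higher and 3 lower, while 38.4% of all tested genes were called (19.5% higher and 18.9% lower; edgeR, adjusted p under 0.05). In KO cells 2 members were higher, KRT20 and CDX1, and 1 lower, VIL1, against 30.9% of all genes (16.1% higher and 14.8% lower). With 7FTA in both arms, 1 was higher and 3 lower in WT cells (34% of genes called) and likewise 1 and 3 in KO cells (31.2%).

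KRT20 in WT cells went from 330 to 358 CPM with DMSO to 688 to 728 CPM with TNFα. In KO cells it went from 411 to 427 CPM to 699 to 720 CPM. In each genotype the groups did not overlap. The change was 1.06 ± 0.03 in WT (log2, SE, n = 3; edgeR adjusted p = 6.27e-31) and 0.75 ± 0.03 in KO cells (9.5e-25). The difference between these changes was -0.31 ± 0.05 (interaction, adjusted p = 4.91e-06), in a test that called 3.55% of all genes. With 7FTA in both arms the changes were 0.93 ± 0.03 and 0.69 ± 0.03, and their difference was -0.24 ± 0.05 (adjusted p = 0.00075; 2.56% of genes called). No other tested member passed either interaction test. For VIL1 the interaction without 7FTA was -0.02 (95% interval -0.12 to 0.08) and for DPP4 0.10 (-0.09 to 0.29).

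VIL1, the microvillus bundler, fell in both genotypes. In WT cells the libraries went from 128 to 135 CPM to 86.0 to 92.6 CPM, and in KO cells from 214 to 218 CPM to 140 to 149 CPM. The log2 change was -0.57 ± 0.04 in WT (SE, n = 3; edgeR adjusted p = 5.4e-18) and -0.59 ± 0.03 in KO cells (1.47e-19). KO cells with TNFα still stood above WT cells without it.

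CDX2 in WT cells had 1.54, 1.82 and 1.93 CPM with TNFα, all below the 3 DMSO libraries. The change of -0.61 ± 0.22 (log2, SE, n = 3) was called by edgeR (adjusted p = 0.0277). It was not called without WT DMSO replicate 3 (-0.44, 0.186), WT TNFα replicate 1 (-0.53, 0.102) or WT TNFα replicate 3 (-0.63, 0.0527). In KO cells the change was -0.36 ± 0.29, with 0.621, 1.01 and 1.03 CPM, and the interaction had a wide 95% interval of -0.50 to 1.00. With 7FTA in both arms it was -0.67 ± 0.22 in WT (adjusted p = 0.0121; 0.0591 without WT 7FTA replicate 3 and 0.064 without WT TNFα plus 7FTA replicate 1) and -0.51 ± 0.25 in KO cells (0.127). The latter was called without KO TNFα plus 7FTA replicate 3 (-0.78, 0.0362).

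CDX1 was called higher with TNFα in KO cells, whose TNFα libraries are among those that brought it past the count filter, so this call and the one between genotypes with TNFα are descriptions. KO libraries with TNFα had 0.537, 0.574 and 1.01 CPM, from 12, 12 and 17 counts, above the 0.156 to 0.325 CPM with DMSO. The change was 1.44 ± 0.44 (log2, SE, n = 3; edgeR adjusted p = 0.00887), and 1.13 with an adjusted p of 0.0818 without KO TNFα replicate 2, the highest library. In WT cells it was 0.95 ± 0.56 and not called, and the interaction of 0.49 ± 0.74 leaves both signs within its interval of -1.01 to 1.99.

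The change of DPP4 under TNFα was small. WT libraries had 15.8, 18.5 and 21.8 CPM against 20.5 to 23.8 CPM with DMSO, so the groups overlapped, with a change of -0.25 ± 0.08 (log2, SE, n = 3; edgeR adjusted p = 0.00751). It was not called without WT DMSO replicate 3 (-0.19, 0.0662) or WT TNFα replicate 1 (-0.15, 0.139). In KO cells the change was -0.14 ± 0.06 (adjusted p = 0.0559), and it was called with the 2 groups fitted alone (0.0337). With 7FTA in both arms it was -0.24 ± 0.08 in WT (0.0121; 0.104 without WT 7FTA replicate 3) and -0.18 ± 0.06 in KO cells (0.0111; 0.0645 without KO 7FTA replicate 2 and 0.0612 without KO TNFα plus 7FTA replicate 1).

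CDH17 was called in 1 of the 4 TNFα comparisons. In KO cells with 7FTA in both arms it fell from 2.99, 3.36 and 3.67 CPM to 1.62, 1.74 and 1.77 CPM, a change of -0.97 ± 0.20 (log2, SE, n = 3; edgeR adjusted p = 0.000141). The changes were -0.72 ± 0.32 (adjusted p = 0.0698) in WT cells and -0.46 ± 0.23 (0.125) in KO cells without 7FTA. The latter was called without KO DMSO replicate 3 (-0.69, adjusted p = 0.0227). FABP1 changed by -0.39 ± 0.41 in WT and 0.13 ± 0.45 in KO cells, with overlapping libraries and no call.

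**Figure D3:**
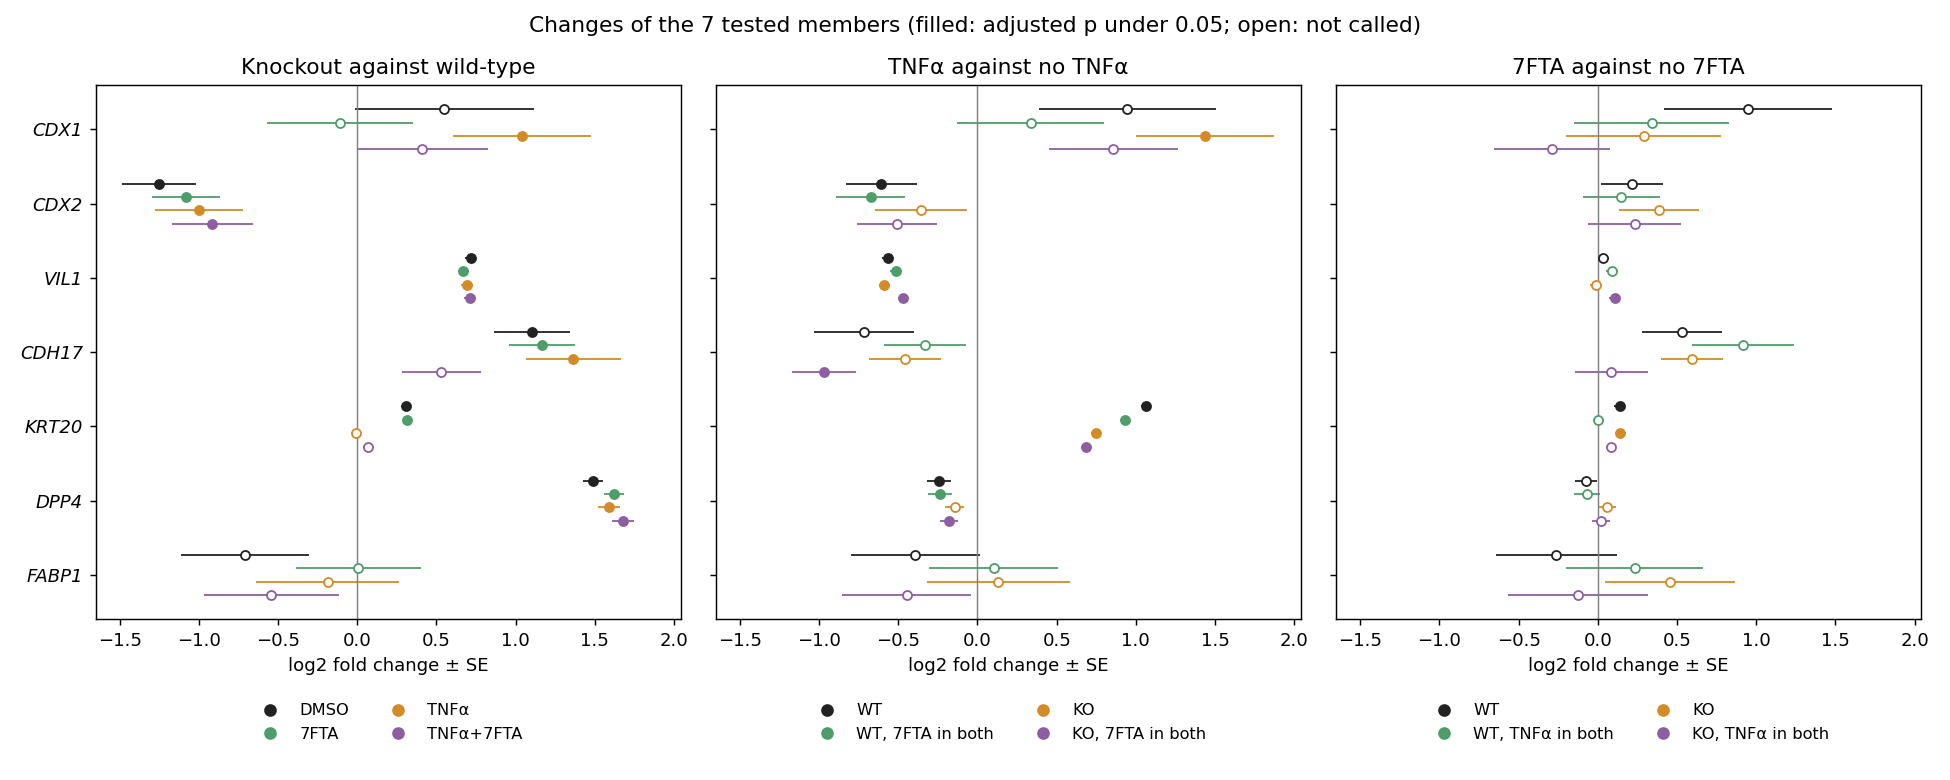
Log2 fold changes ± SE of the 7 tested members for knockout against wild-type (left), TNFα against no TNFα (middle) and 7FTA against no 7FTA (right), 3 libraries per group; filled points have an adjusted p under 0.05. KRT20 alone lies to the right in all 4 TNFα comparisons as filled points, VIL1 lies to the left in all 4, and most 7FTA points are open.

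The lists are read against all tested genes, of which 19.5% were higher and 18.9% lower with TNFα in WT cells. In KO cells 16.1% were higher and 14.8% lower. Brush border structure in WT cells had 8 genes lower with TNFα, 2 higher and 7 not called of 17 (median -0.20). In KO cells it had 7 lower, 2 higher and 8 not called (median -0.25). ANKS4B, a scaffold of the microvillus tip links, was 2.58-fold lower in WT and 1.84-fold lower in KO cells. The scaffold SLC9A3R1 was 1.5-fold and 1.38-fold lower, and EPS8L2 1.44-fold and 1.34-fold lower. EZR was 1.24-fold higher in WT cells. The transporters had 3 lower and 5 not called in WT, and 1 higher, 2 lower and 5 not called in KO cells. The iron exporter SLC40A1 was 2.30-fold and 1.52-fold lower. SLC5A1 was 1.39-fold lower in WT and 1.2-fold higher in KO cells. The interaction of genotype and TNFα without 7FTA was called for 3 of the 8 transporters, against 3.55% of all genes. Colonocyte products had 3 higher and 1 lower of 10 in WT, and 4 higher and 2 lower in KO cells, with CEACAM1 1.33-fold and 1.66-fold higher and CLCA4 1.73-fold and 4.56-fold higher. In lipid handling 1 was higher and 2 lower of 4 in WT, and 1 higher and 1 lower in KO cells, and the triglyceride enzyme DGAT1 was 1.24-fold and 1.19-fold lower. Of the 3 hydrolases 1 was lower in WT and 0 were called in KO cells.

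Of the 13 regulators, 3 were higher and 3 lower with TNFα in WT cells, against 19.5% and 18.9% of all genes. In KO cells 4 were higher and 1 lower, against 16.1% and 14.8%. KLF4 rose 2.04-fold in WT (adjusted p = 3.09e-16 by edgeR) and 1.13-fold in KO cells, which began at 28.1 CPM. KLF5 rose 1.19-fold and 1.26-fold. HES1 fell 1.45-fold and 1.31-fold. ELF3 was 1.44-fold lower in WT cells and differed by 0.00 ± 0.05 (log2, SE) in KO cells. HNF4A was 1.15-fold lower in WT. HNF4G was 1.12-fold higher in KO cells, and PRDM1 2.21-fold higher in WT cells. Separate calls in WT and KO cells do not test a difference between them. The interaction of genotype and TNFα without 7FTA was called higher for 1 and lower for 1 of the 13 regulators, against 3.55% of all genes. Goblet markers had 3 lower and 1 higher of 7 in WT and 4 lower in KO cells, with summed levels of 212 to 223 and 703 to 756 CPM with TNFα.

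**Figure D4:**
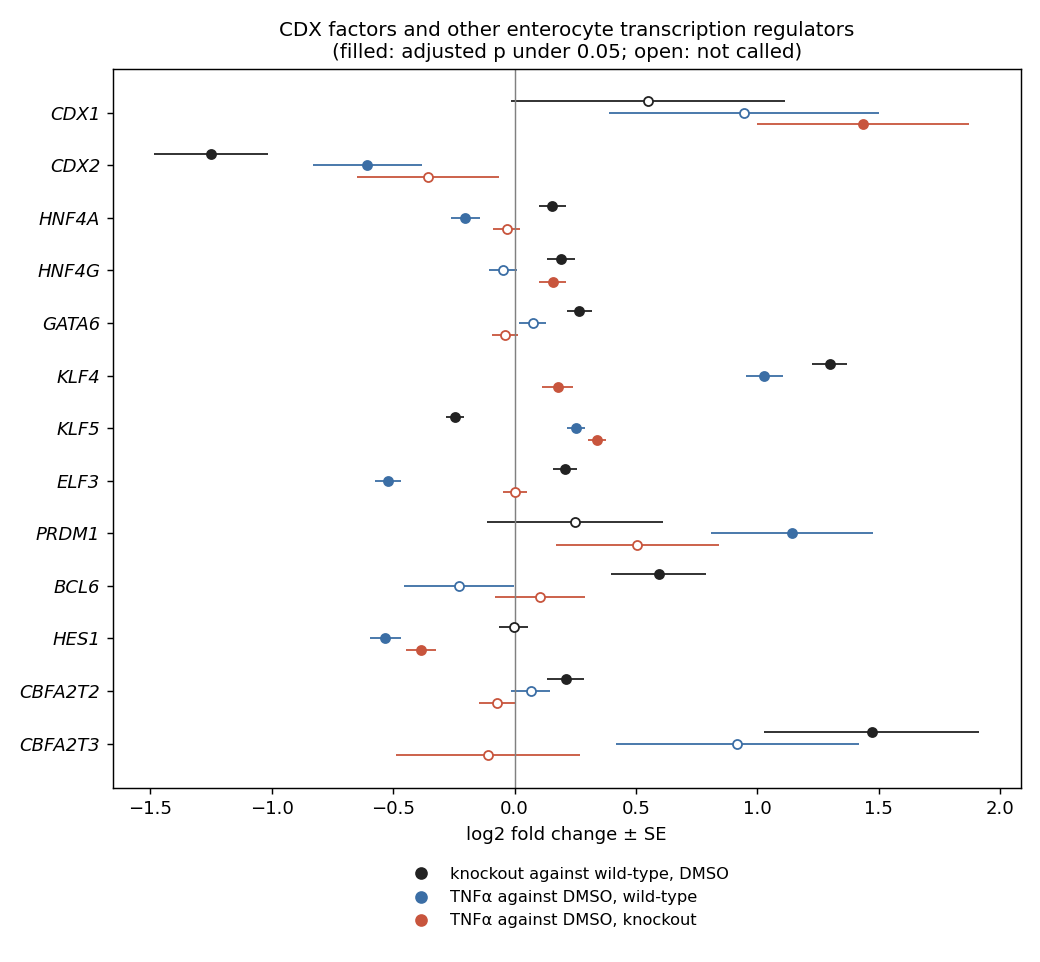
Log2 fold changes ± SE of CDX1, CDX2 and 11 other enterocyte regulators, for knockout against wild-type with DMSO (black) and TNFα against DMSO in wild-type (blue) and knockout cells (red), 3 libraries per group; filled points have an adjusted p under 0.05. CDX2 lies at -1.25 in the knockout while KLF4 lies at 1.30.

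The third comparison was 7FTA against its absence. KRT20 was the only member called without TNFα. In WT cells it had 369, 375 and 379 CPM with 7FTA against 330 to 358 CPM with DMSO, a 1.10-fold rise of 0.14 ± 0.03 (log2, SE, n = 3; edgeR adjusted p = 0.0099). In KO cells it had 451, 461 and 483 CPM against 411 to 427 CPM, also 1.10-fold (0.14 ± 0.03, 0.00633). Of all tested genes 2.05% were called in WT and 2.38% in KO cells. The WT call was lost without any 1 of 4 of the 6 libraries (DMSO replicates 2 and 3, 7FTA replicates 1 and 2; adjusted p = 0.0527 to 0.11), and the KO call without DMSO replicate 2 (0.0757) or 7FTA replicate 2 (0.103).

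In the presence of TNFα, 0 of 7 tested members were called in WT cells, where 5.54% of genes were, and 1 in KO cells, where 7.52% were. The member was VIL1, at 154 to 155 CPM against 140 to 149 CPM, a change of 0.11 ± 0.04 (log2, SE, n = 3; edgeR adjusted p = 0.0496). This call was lost with DESeq2 (0.0517), RLE factors (0.0618), no filter (0.109) and the 2 groups fitted alone (0.162). It was also lost without each of 5 of the 6 libraries (0.0796 to 0.208). These were KO TNFα replicates 1 and 3 and KO TNFα plus 7FTA replicates 1, 2 and 3. At an unadjusted p under 0.05, 2383 of the 14059 genes passed in WT cells. DESeq2 also called 0 members there.

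CDH17 was called in none of the 4 comparisons of 7FTA. It differed by 0.53 ± 0.25 in WT (log2, SE, n = 3; edgeR adjusted p = 0.397) and by 0.60 ± 0.20 in KO cells (0.103). With TNFα present it differed by 0.92 ± 0.32 in WT (0.089) and by 0.09 ± 0.23 in KO cells (0.891). The KO library with the highest DMSO value, replicate 2 at 3.32 CPM, overlapped the 7FTA group. Without it the change was 0.98 (adjusted p = 0.00466). CDX2 differed by 0.22 ± 0.20 in WT and 0.39 ± 0.25 in KO cells, DPP4 by -0.07 ± 0.07 and 0.06 ± 0.06, and VIL1 by 0.04 ± 0.04 and -0.01 ± 0.03.

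ANPEP had its highest counts with 7FTA. The 3 WT libraries had 0, 5 and 6 counts with 7FTA and 0, 1 and 1 with DMSO, and the KO libraries 4, 10 and 13 against 1, 1 and 3. Over both genotypes that is 38 against 7 counts, a depth-scaled ratio of 5.17 (95% interval 2.28 to 13.7, counting error only). An exact two-sided permutation within the genotypes gave p = 0.02, and 0.09 after adjustment over the 9 permutation tests, so the difference did not pass. In the edgeR fit without the count filter the changes were 2.37 ± 1.04 in WT (log2, SE, n = 3; adjusted p = 0.526) and 2.06 ± 0.79 in KO cells (0.283). With TNFα present the counts were 11 with and 10 without 7FTA, a ratio of 1.00 (0.386 to 2.63). In that fit ANPEP in KO cells was lower with TNFα plus 7FTA than with 7FTA (-2.43 ± 0.82, adjusted p = 0.0241). This was the only call of ANPEP in that fit, and it rests on 4 against 27 counts. In WT cells the same change was -0.39 ± 0.84 (adjusted p = 0.971). The interaction of genotype and TNFα with 7FTA was not called either (-2.04 ± 1.22, adjusted p = 0.766).

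The interaction of genotype and 7FTA was called for no member. Without TNFα it was called for 0% of all genes by edgeR, with 495 genes at an unadjusted p under 0.05, and 1 gene was called without the count filter. With TNFα it was called for 0.064%, 9 genes. For KRT20 the interaction was 0.01 (95% interval -0.09 to 0.10) without TNFα. With 7FTA and no TNFα, the lists had 0 of 17 structural genes, 0 of 13 regulators, 0 of 8 transporters, 0 of 4 lipid genes and 0 of 3 hydrolases called in either genotype. With TNFα present, the 7FTA comparison called 5.54% of all tested genes in WT and 7.52% in KO cells. There 3 structural genes were higher with 7FTA in WT and 2 in KO cells. EPS8L3 and EPS8L2 were those called in both genotypes, and SLC9A3R1 was the other in WT. Among transporters SLC11A2 was higher in WT and SLC5A1 lower in KO cells, and the lipid gene SLC27A4 was higher in WT. These genes were named here after their values were seen. Without TNFα, of 10 colonocyte products 1 was called in WT and 3 in KO cells, against 2.05% and 2.38% of all tested genes. CEACAM6 was the WT gene, higher by 0.71 ± 0.08 (log2, SE, n = 3), and CEACAM6, CEACAM5 and CEACAM1 were the KO genes, at 0.52, 0.47 and 0.23. With TNFα present 3 of 10 were higher in WT, and 3 higher and 1 lower in KO cells. The colonocyte genes were also named after their values were seen.

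Over the 8 group means of log2 CPM, members did not follow a common profile. VIL1 correlated with CDH17 (Pearson r = 0.90), DPP4 (0.86) and CDX2 (-0.41), and KRT20 with CDX1 (0.83) and VIL1 (-0.43). CDX2 and DPP4 had r = -0.80. These values describe 8 points that share libraries and are dominated by genotype and TNFα. Among the 14059 tested genes, those most like VIL1 on this measure were SNN and LLGL2 (both r = 1.00 after rounding). For DPP4 they were KIAA0513 and HGD, for KRT20 PPIB and PPP1R11, and for CDX2 UST and TRIM24. For CDH17 they were STX3 and SPON2, for CDX1 RHOV, and for FABP1 AC020763.4 and MRPL45P2. The weakest of these were those of FABP1 (0.95 and 0.93).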

How the data were processed

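RNA of HT-29 cells was poly(A)-selected and sequenced as single-end reads of 100 bases. The deposited table holds raw counts per gene and library, per the labels and the values (whole numbers with totals that differ). The submitters' processing notes name the build GRCh38, the aligner STAR 2.6.1d, the counter featureCounts 1.6.4 and the package DESeq2 1.20.0, without saying what each was used for. The strand setting and the annotation release are not given in the sources used here. Groups and replicate numbers come from the sample titles. Positions come from GENCODE 29 (58516 of 60623 identifiers matched) and promoters from RefSeq on GRCh38.p14.

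Calculations used R 4.3.3, edgeR 4.0.16 and DESeq2 1.42.0. filterByExpr on the 8 groups (minimum count 10) kept 14059 of the 30061 genes with a count, and TMM factors were 0.944 to 1.05. All 24 libraries entered edgeR's robust quasi-likelihood model with a mean for each group, and 12 contrasts and 4 interactions were tested on both sides. A gene is called, or said to be higher, lower, risen or fallen, at a Benjamini-Hochberg adjusted p under 0.05 over all tested genes. CPM values use TMM factors, fold changes are log2, and the SE is the absolute log2 change over the square root of F. Intervals are 95%, and for sums of counts cover counting error only. The common biological coefficient of variation was 4.06%. No 2 libraries of a group were copies: chi-square over degrees of freedom was 2.07 to 6.63 between them. The steps were tested on simulated data.

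Members and lists were chosen with earlier results of these data known. Named genes are the members, GPRC5A, all tested regulators, up to 4 called genes with the smallest p from each other list with the knockout and with TNFα, and the 2 genes most like each tested member. Not every gene so chosen is printed, and a few are not reported here. Alternatives were DESeq2, RLE factors, no count filter, a replicate block, only the 2 groups compared, and each library left out in turn. The exact permutation tests of ANPEP, SI and ALPI, and their repeat with RLE factors, were chosen after seeing the data.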

Additional observations from a re-analysis of the deposited data

Results flagged for a closer look

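KRT20 rose less with TNFα in KO cells than in WT cells: the difference between the 2 changes was -0.3136 (log2) without 7FTA and -0.2415 with 7FTA in both arms. It stands out because the same contrast differs between genotypes by a test of the difference itself (edgeR interaction, adjusted p = 4.91e-06 and 0.00075). With DMSO the KO libraries lay above the WT libraries (411 to 427 against 330 to 358 CPM), and with TNFα alone the libraries overlapped. With TNFα plus 7FTA the KO libraries lay above the WT libraries (728 to 765 against 709 to 719 CPM), but the difference was not called.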

How the results depend on the processing

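No value of a member reversed its call under the alternatives listed above. Over 1351 comparisons of a member's value with its alternative, 41 changed sign, each time without a call in either setting. With TNFα in KO cells the count of members called for 7FTA went from 1 to 0 with DESeq2, RLE factors, no filter and the 2 groups fitted alone, and that last setting called 668 genes in place of 1057. For the interaction of genotype and 7FTA, edgeR called 1 gene without the filter in place of 0 (no TNFα), and with TNFα 15 by DESeq2 and 24 without the filter in place of 9. Leaving out 1 library at a time gave 2 to 4 members called for TNFα in WT cells, and 2 to 4 with 7FTA in both arms. It gave 0 to 1 members for 7FTA in WT and in KO cells, with 190 to 219 and 197 to 233 genes, and 503 to 717 genes for 7FTA with TNFα in WT cells and 0 to 1 members in KO cells. For the interactions it gave 231 to 365 genes (TNFα, with 7FTA), 0 to 1 (7FTA, no TNFα) and 0 to 11 (7FTA, with TNFα). The libraries behind each lost call of a member are named with its result, and the cause was not tested beyond the smaller number of libraries. The fits for 1 comparison alone were not run for the interactions.

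Replicate numbers are shared across groups, but the residuals of same-numbered libraries over all tested genes had correlations of -0.0649 to 0.119 (mean 0.0191). In 0 of 28 pairs of groups were all 3 above 0.1. No pairing by number was seen across genes, but low correlations over all genes do not exclude a pairing. FABP1 was highest in replicate 3 in each WT treatment (1.08, 0.816, 0.971 and 1.02 CPM). In KO cells that held with DMSO alone. A fit with the replicate block called 18 genes for the interaction of genotype and 7FTA with TNFα. Under it DPP4 was called lower with TNFα in KO cells (-0.14, adjusted p = 0.0339) and KRT20 higher in KO cells with TNFα plus 7FTA (0.07, 0.0434); no other call of a member changed. Depth limits ANPEP, SI and ALPI most: a count of 0 over the 3 libraries of a group allows 3 counts, or up to 0.0382 to 0.0584 CPM.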
